A study of Homo sapiens with 42 samples.

Results

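NFE2L1 and NFE2L2, 2 transcription factors of the cap'n'collar family, were followed in K562 cells together with the repressor BACH1, the small MAF partners MAFG and MAFK, and 5 enzymes of the antioxidant response, HMOX1, NQO1, GCLM, TXNRD1 and SRXN1. These 10 genes were chosen by name, and each matched 1 row of both count tables, out of 58243 gene IDs in all. K562 is an established line from chronic myeloid leukaemia that depends on the BCR-ABL1 kinase. Cells were untreated (CTRL) or received 1 μM imatinib (IM), a BCR-ABL1 inhibitor, for 1, 6 or 18 h, 5 μM JTE-607 (JTE), an inhibitor of the 3′ end nuclease CPSF73, for 1, 6 or 18 h, or 110 mM KCl, a hyperosmotic shock, for 1 or 3 h. All 9 of these groups were sequenced as poly(A) mRNA of whole cells, and CTRL, IM 1h, IM 18h, JTE 1h and KCl 1h also as nuclear RNA depleted of ribosomal RNA, with 3 biological replicates in each of the 14 groups (42 libraries). A single untreated group per fraction served as the control for every time, no vehicle is named in the labels, and the data come from 1 cell line.

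NFE2L2 binds antioxidant response elements as a heterodimer with a small MAF protein and drives genes for glutathione synthesis, thioredoxin reduction and quinone and heme detoxification. KEAP1 marks it for degradation in unstressed cells, so that much of its control lies in protein stability rather than mRNA level. BACH1 occupies the same elements with the same partners as a repressor and is released by heme, which makes the pathway prominent in erythroid cells such as K562. NFE2L1 is held in the endoplasmic reticulum, is released by cleavage, and is known for driving proteasome subunit genes.

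To show the element these proteins read, promoter windows of 250 bases before to 50 after each start site (RefSeq, GRCh38.p14) were searched on both strands for TGACNNNGC, the core of the antioxidant response element, and for TGANTCA, the core read by AP-1 and MAF proteins. Windows were found for 8 of the 10 genes (13 windows), leaving out MAFK and HMOX1. TGACNNNGC was in 3 of them, 1 of GCLM and 2 of TXNRD1, against 13.35% of all 35116 windows, and TGANTCA was in 1, of BACH1, against 7.709%. None of these matches overlapped a match to the other motif. The following stretches are given on the gene's strand, 5′ to 3′, for the 3 genes with a match. These 3 genes were each called in at least 1 fraction at 18 h of imatinib, as described further on. So were NFE2L2, NQO1 and SRXN1, whose windows held no match to either motif. Capitals mark the match, which reads as the reverse complement where it lies on the other strand.
GCLM, chr1:93909431-93909489, minus strand, match on the opposite strand starting at position -34: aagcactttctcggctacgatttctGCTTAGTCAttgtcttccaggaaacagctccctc
TXNRD1, chr12:104215655-104215713, plus strand, match on the same strand starting at position -99: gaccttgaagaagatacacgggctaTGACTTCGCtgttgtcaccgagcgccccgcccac
TXNRD1, chr12:104286905-104286963, plus strand, a second start site, match on the opposite strand starting at position -102: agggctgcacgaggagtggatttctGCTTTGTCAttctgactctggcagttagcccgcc
BACH1, chr21:29298849-29298905, plus strand, starting at position -48: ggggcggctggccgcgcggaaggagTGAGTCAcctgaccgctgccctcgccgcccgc
Positions count bases before the start site, and the first TXNRD1 window held another match starting at position -8. A match is a sequence of letters and not a shown binding site, and binding was not measured.

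The factors lie at chr17:48048329-48061487, plus strand, for NFE2L1 (ENSG00000082641) and chr2:177227595-177392697, minus strand, for NFE2L2 (ENSG00000116044). These and the following spans are from the exon coordinates deposited with the counts, on hg38. The repressor BACH1 (ENSG00000156273) spans chr21:29194071-29630751 on the plus strand, and the small MAF genes span chr17:81918270-81927714 on the minus strand (MAFG, ENSG00000197063) and chr7:1530714-1543043 on the plus strand (MAFK, ENSG00000198517). Of the enzymes, HMOX1 (ENSG00000100292) is at chr22:35380361-35394214 and TXNRD1 (ENSG00000198431) at chr12:104215779-104350305, both on the plus strand. NQO1 (ENSG00000181019) at chr16:69706996-69726951, GCLM (ENSG00000023909) at chr1:93885205-93909456 and SRXN1 (ENSG00000271303) at chr20:646615-653370 are on the minus strand. Read pairs were counted over all annotated exons, UTRs included. The aligner allowed introns of up to 10000 bases, and longer ones occur in the canonical transcripts of NFE2L2 (1), BACH1 (2) and TXNRD1 (3), so pairs spanning them were not aligned across.

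Levels are given as CPM, the usual scaling of a gene's read pair counts to its library's total (here the TMM effective total), for replicates 1, 2 and 3 in that order. The mRNA libraries held 16439848 to 22505595 counts each, apart from KCl 1h replicates 2 and 3 with 62953314 and 42474454, and the nuclear libraries 16175394 to 25103205. The erythroid markers HBG1, HBG2, GATA1 and TFRC were above 100 CPM in every library, CD3E, MS4A1 and ALB stayed under 1 CPM, and EPCAM, an epithelial marker, was between 75.0 and 108 CPM in mRNA. A gene was called changed at an edgeR quasi-likelihood Benjamini-Hochberg adjusted p under 0.05 over all genes tested (18095 for mRNA, 21929 for nuclear RNA) and a log2 fold change beyond 0.6. Of the 10 genes, 9 passed the filter on low counts in both fractions, and HMOX1 did not. In every comparison where edgeR called 0 of the 9 genes, DESeq2 called 0 too.

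In CTRL mRNA the levels per kilobase of exon put TXNRD1, which reduces thioredoxin with NADPH, first at 54.1 ± 4.34 CPM per kb (SD, n = 3). NFE2L1 followed at 23.2 ± 2.09 CPM per kb. MAFG (18.8 ± 0.664), NQO1 (18.4 ± 2.44), NFE2L2 (17.0 ± 6.32) and GCLM (16.1 ± 1.99 CPM per kb) came next and did not differ from their neighbours beyond their spread. BACH1 stood at 12.2 ± 1.25 CPM per kb, within the wide spread of NFE2L2. MAFK (2.11 ± 0.532) and SRXN1 (0.515 ± 0.224 CPM per kb) were far lower, and HMOX1 had no count. The SRXN1 level is a lower bound, since 85.0% of its exon bases are shared with another gene. Pairs in exons of 2 genes were not counted, but the full exon length was used. The same holds to a smaller degree for NFE2L2, MAFK and NQO1. In CTRL nuclear RNA the first 4 genes were the same, with TXNRD1 at 48.6 ± 5.17 and NFE2L1 at 29.1 ± 2.06 CPM per kb, whereas GCLM fell behind NFE2L2 and BACH1 at 9.64 ± 0.650 CPM per kb.

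**Figure D1:**
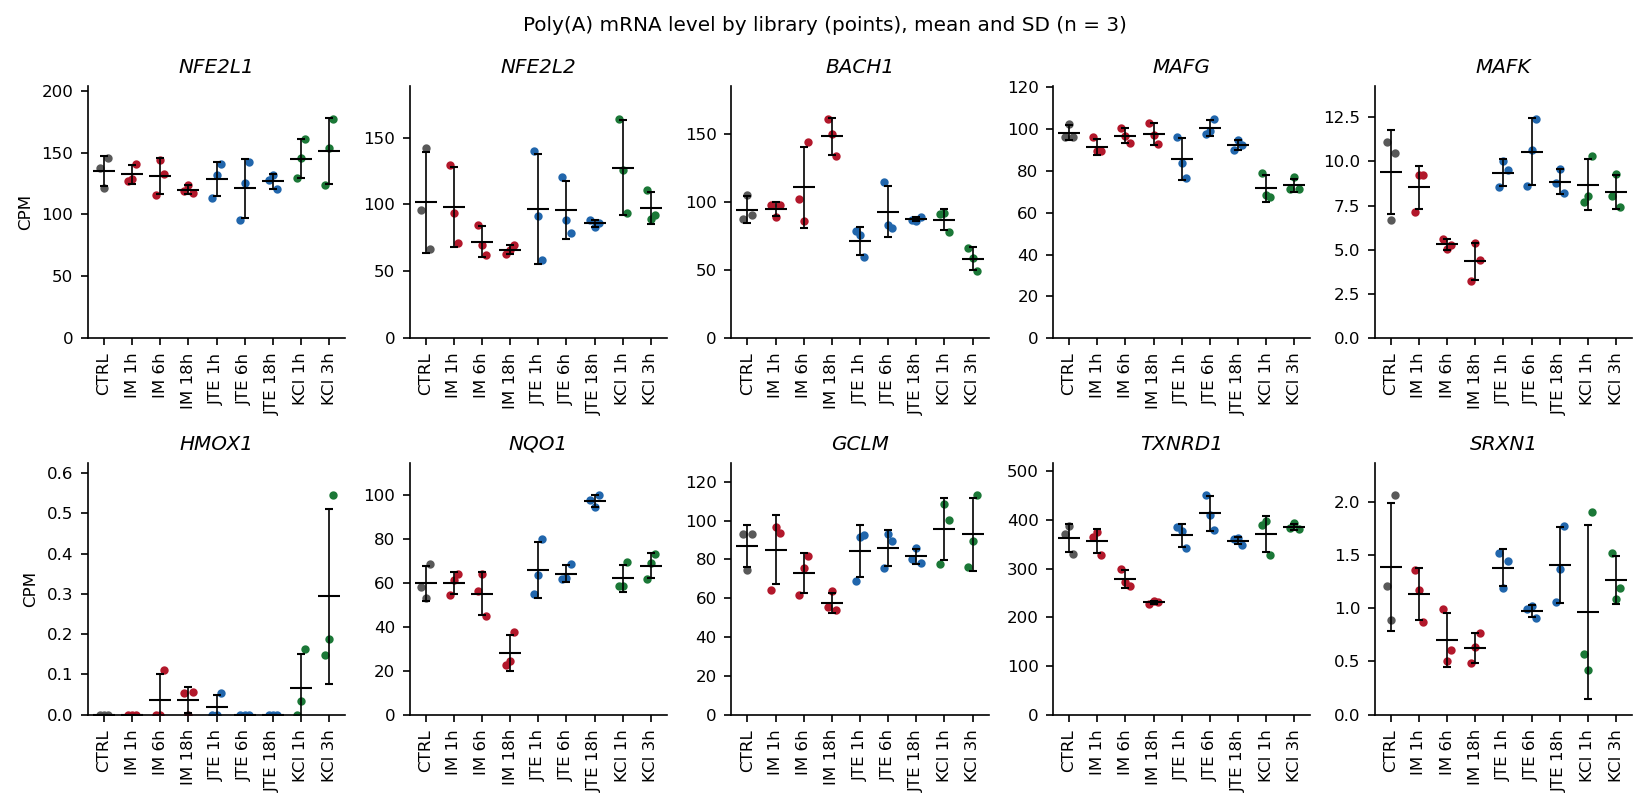
Level of each of the 10 genes in poly(A) mRNA, in CPM on a linear axis from 0, by treatment group. Points are the 3 libraries of a group in the order of their replicate numbers, and the horizontal mark and bar are their mean and SD. NQO1, TXNRD1 and MAFK were lowest in IM 18h, BACH1 was highest in IM 18h and lowest in KCl 3h, NQO1 was highest in JTE 18h, and NFE2L1 stayed between 95.7 and 177 CPM throughout.

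Imatinib at 18 h gave the broadest response. In mRNA 4 of the 9 tested genes were called lower (MAFK, NQO1, TXNRD1 and SRXN1), against 13.2% of all genes tested, and BACH1 was called higher. Calls in either direction, 5 of 9, stood against 30.5% of all genes. The median log2 fold change of the 9 genes was -0.62, and that of all genes was 0.04. In bulk RNA of this kind, fewer cells of a type and less RNA per cell cannot be told apart.

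NFE2L1 mRNA was not called with imatinib. It was at 138, 122 and 145 CPM in CTRL and 119, 124 and 118 CPM in IM 18h, and the groups overlapped only because replicate 2 of CTRL lay among the treated libraries. The log2 fold change was -0.17 (SE 0.13, adjusted p = 0.319 in edgeR), with a 95% interval of -0.44 to 0.10. These counts pool all exons of the gene, so they do not resolve its isoforms. The paper reports that imatinib raised the longer NFE2L1 isoform, TCF11, through an alternative exon. Exon use was not tested here. NFE2L2 mRNA was at 62.8, 65.6 and 69.4 CPM in IM 18h against 95.6, 142 and 67.0 CPM in CTRL. The treated libraries were close together, the CTRL libraries were far apart, and replicate 3 of CTRL lay within the treated range. The change of -0.62 (SE 0.28, adjusted p = 0.0752) did not pass the edgeR test, nor did it pass DESeq2 (adjusted p = 0.0584). The value depended on the CTRL libraries. Without CTRL replicate 2 it was -0.33 (adjusted p = 0.39), and of the 6 fits that left out a library 1 gave a call. Without CTRL replicate 3 it was called at -0.89 (adjusted p = 0.0188), in a fit of only the 2 groups it was called at -0.66 (adjusted p = 0.0369), and with no filter on low counts it was called at -0.70 (adjusted p = 2.88e-06). With replicate numbers as a block it passed the adjusted p but stayed inside the fold threshold, at -0.58 (adjusted p = 0.0282), or at -0.55 (adjusted p = 0.0134) with CTRL numbers 1 and 2 exchanged, for which the sources differ.

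BACH1, the repressor, moved the other way. Its mRNA was at 87.1, 105 and 90.7 CPM in CTRL, 102, 85.8 and 144 CPM in IM 6h and 161, 149.7 and 134 CPM in IM 18h. All IM 18h libraries were above all CTRL libraries, while IM 6h overlapped CTRL. The edgeR log2 fold change at 18 h was 0.65 (SE 0.16, adjusted p = 0.0018), that is 1.57-fold higher. The call sat near the fold threshold. It was lost at 0.59 without CTRL replicate 1, at 0.58 without CTRL replicate 3, at 0.59 without IM 18h replicate 1 and at 0.57 with no filter on low counts, each time with an adjusted p under 0.05.

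The small MAF proteins bind DNA but have no activation domain of their own. MAFG mRNA was at 96.3, 102 and 96.4 CPM in CTRL and 103, 97.4 and 92.7 CPM in IM 18h, with overlapping libraries and a log2 fold change of -0.01 (SE 0.09, adjusted p = 0.94) in edgeR. MAFK, the less abundant partner, was at 11.1, 6.71 and 10.5 CPM in CTRL, 5.60, 5.02 and 5.28 CPM in IM 6h and 3.26, 5.37 and 4.40 CPM in IM 18h. Every library at 6 and 18 h was below every CTRL library. MAFK was called lower in edgeR, at a log2 fold change of -0.83 (SE 0.19, adjusted p = 0.00493) at 6 h and -1.11 (SE 0.20, adjusted p = 8.93e-05) at 18 h. It was the 1 gene of the 9 called at 6 h, where 9.94% of all genes were called. Of the MAFK exon bases, 18.2% are shared with TMEM184A on the opposite strand, and counting used no strand.

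Among the enzymes, NQO1, a quinone reductase, was at 58.0, 52.9 and 68.5 CPM in CTRL, 56.1, 64.3 and 45.0 CPM in IM 6h and 22.5, 24.2 and 37.5 CPM in IM 18h. The IM 6h libraries overlapped CTRL, and the IM 18h libraries lay below all of them. The log2 fold change was -0.12 (SE 0.16, adjusted p = 0.688) at 6 h and -1.09 (SE 0.16, adjusted p = 1.3e-05) at 18 h, and the edgeR test of 18 h against 6 h gave -0.97 (SE 0.16, adjusted p = 0.00128). NQO1 was the 1 gene of the 9 called between those times, where 4.41% of all genes were called. The NQO1 exons share 17.7% of their bases with an antisense gene that had 0 counts. Pairs falling in exons of both genes were not counted, so the 0 does not show that gene to be silent where they overlap. BACH1 was not called in that comparison, at 0.42 (SE 0.16, adjusted p = 0.0949 in edgeR). With the replicate block its adjusted p in edgeR was 0.0572. With CTRL numbers 1 and 2 exchanged in that block it was 0.0373, at 0.42, inside the fold threshold. GCLM also passed the adjusted p alone in the exchanged block (-0.33, adjusted p = 0.0208 in edgeR), and not in the other (0.0683). Of 6 fits that left out a library 1 called BACH1, at 0.65 (adjusted p = 0.00784 in edgeR) when replicate 3 of IM 6h was dropped. Dropping replicate 2 of IM 6h gave 0.27 (adjusted p = 0.412 in edgeR).

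TXNRD1 mRNA was at 372, 387 and 331 CPM in CTRL, 299.7, 272 and 264 CPM in IM 6h and 228, 234 and 230.5 CPM in IM 18h. The 3 groups did not overlap and stepped down with time. In edgeR the log2 fold change was -0.38 (SE 0.09, adjusted p = 0.00326) at 6 h, under the fold threshold, and -0.65 (SE 0.09, adjusted p = 2.05e-06) at 18 h. GCLM, the modifier subunit of the ligase that starts glutathione synthesis, was at 93.2, 74.5 and 93.3 CPM in CTRL and 55.2, 63.5 and 53.8 CPM in IM 18h. All treated libraries were below all CTRL libraries. Its log2 fold change of -0.60 (SE 0.17, adjusted p = 0.00541) fell just inside the fold threshold. It passed that threshold under DESeq2 at -0.62, under RLE normalization at -0.61, with no filter on low counts at -0.68, in a fit of only the 2 groups at -0.63, without CTRL replicate 2 at -0.72 and without IM 18h replicate 2 at -0.70.

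SRXN1, sulfiredoxin, which repairs over-oxidized peroxiredoxins, had only 9 to 82 counts in any mRNA library. It was at 1.21, 0.891 and 2.06 CPM in CTRL and 0.489, 0.632 and 0.770 CPM in IM 18h, without overlap. The edgeR call, at a log2 fold change of -1.13 (SE 0.45, adjusted p = 0.0467), was lost under DESeq2 (adjusted p = 0.0566). It was also lost without CTRL replicate 1 (-1.22), CTRL replicate 3 (-0.77), or IM 18h replicate 1 (-0.98), 2 (-1.15) or 3 (-1.30). Of its exon bases, 85.0% are shared with another annotated gene on the same strand, and pairs that fall in exons of 2 genes were not counted.

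Nuclear RNA at 18 h of imatinib gave 6 of 9 genes called lower (NFE2L2, MAFK, NQO1, GCLM, TXNRD1 and SRXN1), against 15.4% of all genes tested. No gene of the 9 was called higher, and calls in either direction covered 32.6% of all genes. NFE2L2 was at 87.5, 72.0 and 69.2 CPM in CTRL and 52.5, 47.5 and 46.4 CPM in IM 18h. The CTRL libraries were closer together than in mRNA and all lay above the treated ones. The edgeR log2 fold change was -0.64 (SE 0.13, adjusted p = 0.000291), and it passed inside the fold threshold, at -0.49, without CTRL replicate 1. Of the NFE2L2 exon bases, 20.9% are shared with other annotated genes.

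MAFK fell most in nuclear RNA, from 19.5, 21.1 and 19.3 CPM in CTRL to 6.41, 8.70 and 7.96 CPM in IM 18h. The groups were far apart relative to their spread, and the log2 fold change was -1.38 (SE 0.13, adjusted p = 4.87e-08) in edgeR. NQO1 went from 63.0, 62.1 and 54.9 CPM to 20.5, 33.9 and 39.8 CPM, and TXNRD1 from 356, 334 and 288 CPM to 198, 209 and 176 CPM. Neither gene's groups overlapped, and the edgeR log2 fold changes were -0.94 (SE 0.17, adjusted p = 0.000188) for NQO1 and -0.75 (SE 0.11, adjusted p = 1.03e-05) for TXNRD1. GCLM was at 56.0, 51.7 and 49.0 CPM in CTRL and 38.3, 32.5 and 31.6 CPM in IM 18h, a change of -0.61 (SE 0.10, adjusted p = 5.84e-05) in edgeR. Its libraries did not overlap, but the value sat at the fold threshold. It was inside it at -0.59 under RLE normalization, at -0.52 and -0.56 without CTRL replicate 1 or 2, and at -0.58 and -0.56 without IM 18h replicate 2 or 3. SRXN1 was at 1.79, 1.46 and 1.63 CPM in CTRL and 1.02, 0.908 and 0.702 CPM in IM 18h, without overlap and with a change of -0.87 (SE 0.25, adjusted p = 0.00686) in edgeR.

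The regulators not called in nuclear RNA were NFE2L1, MAFG and BACH1. BACH1 was at 119, 112 and 104 CPM in CTRL and 189, 159 and 137 CPM in IM 18h, all treated libraries being higher. Its edgeR change of 0.53 (SE 0.11, adjusted p = 0.000609) was under the fold threshold, and passed it at 0.62 without CTRL replicate 1 and at 0.64 without IM 18h replicate 3. NFE2L1 changed by -0.11 (95% interval -0.31 to 0.09) and MAFG by -0.05 (95% interval -0.26 to 0.16) on the log2 scale, both with overlapping libraries.

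To ask whether the nuclear and the mRNA response differed, an interaction was tested in edgeR on the 12 libraries of each matched treatment. No interaction was called for the 9 genes at IM 18h (adjusted p = 1 for each, and 0 of 9 at an unadjusted p under 0.05), where 0.0901% of all genes were called. The nuclear response minus the mRNA response was 0.03 on the log2 scale for NFE2L2 (95% interval -0.57 to 0.63) and -0.04 for TXNRD1 (95% interval -0.35 to 0.28). The NFE2L2 interval is wide enough to hold differences as large as its response. At IM 1h, JTE 1h and KCl 1h the edgeR test also called 0 of 9 interactions, against 0%, 0.0605% and 0.668% of all genes, and 0, 1 and 0 of the 9 had an unadjusted p under 0.05. That gene was BACH1 at JTE 1h, whose response was 0.47 higher in nuclear RNA on the log2 scale (adjusted p = 0.665). With the replicate block its adjusted p was 0.238, and with CTRL mRNA numbers 1 and 2 exchanged in that block it was 0.000283, at 0.48, still inside the fold threshold. MAFK then passed the adjusted p alone too (-0.46, adjusted p = 0.0375).

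**Figure D2:**
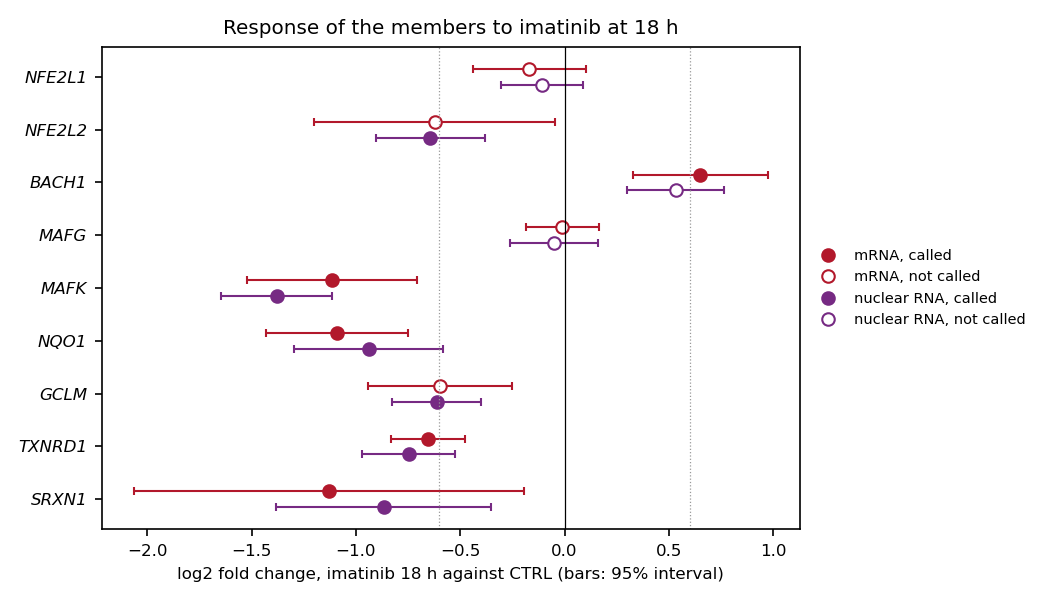
Log2 fold change of IM 18h against CTRL for the 9 tested genes, in mRNA (red) and nuclear RNA (purple). Bars are 95% intervals, filled points were called, and dotted lines mark the fold threshold of 0.6 in either direction. BACH1 lies to the right in both fractions, NFE2L1 and MAFG lie near 0, and the other 6 genes lie to the left, MAFK at -1.11 in mRNA and -1.38 in nuclear RNA.

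At 1 h of imatinib no change of these genes was detected at this replication. In edgeR 0 of 9 genes were called in mRNA, where 0.0166% of all genes were called, and 0 of 9 had an unadjusted p under 0.05. The mRNA log2 fold changes ran from -0.29 (SRXN1) to 0.00. In nuclear RNA 0 of 9 were called in edgeR against 0.0456% of all genes, and 1 of 9, MAFK at -0.26 (SE 0.12, adjusted p = 0.879), had an unadjusted p under 0.05. MAFK was at 17.1, 16.0 and 17.1 CPM in nuclear IM 1h, each library being below each of CTRL.

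With JTE-607, 1 of the 9 mRNAs was called. At 18 h NQO1 was called higher, against 5.39% of all genes called in either direction. Its mRNA was at 54.8, 63.4 and 80.0 CPM in JTE 1h, 61.6, 62.3 and 68.5 CPM in JTE 6h and 98.0, 94.5 and 99.9 CPM in JTE 18h. Only the JTE 18h libraries all lay above CTRL, by 0.71 (SE 0.16, adjusted p = 0.00661) on the log2 scale in edgeR, or 1.63-fold. TXNRD1 was at 359.8, 363 and 349 CPM and GCLM at 80.3, 85.9 and 78.2 CPM in JTE 18h, both overlapping CTRL. Their 95% intervals of the log2 fold change were -0.20 to 0.15 and -0.44 to 0.25.

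At 1 h of JTE-607 edgeR called 0 of 9 genes in mRNA, against 0.851% of all genes, and 2 of 9 had an unadjusted p under 0.05, BACH1 at -0.40 (SE 0.16, adjusted p = 0.404) and MAFG at -0.20 (SE 0.09, adjusted p = 0.519). BACH1 was at 78.9, 75.8 and 59.3 CPM, below every CTRL library. At 6 h 0 of 9 were called in edgeR against 13.2% of all genes, and 1 of 9, TXNRD1 at 0.19 (SE 0.08, adjusted p = 0.141), had an unadjusted p under 0.05. With the replicate block TXNRD1 passed the adjusted p alone in edgeR (0.041, or 0.03 with CTRL numbers 1 and 2 exchanged), still at 0.19. Nuclear RNA of JTE 1h had 0 of 9 called in edgeR against 8.52% of all genes, with 3 of 9 at an unadjusted p under 0.05. These were NFE2L1 at -0.20 (SE 0.09, adjusted p = 0.221, and 0.0332 with the replicate block), and both small MAF genes, MAFG at -0.33 (SE 0.10, adjusted p = 0.0418) and MAFK at -0.48 (SE 0.12, adjusted p = 0.0134), which passed the adjusted p alone and not the fold threshold.

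Imatinib and JTE-607 were both applied for 18 h and were also compared directly. In edgeR 4 of 9 mRNAs were called lower in IM 18h than in JTE 18h, against 13.6% of all genes, and BACH1 was called higher, which makes 5 of 9 against 30.3% in either direction. NQO1 differed most, by -1.80 (SE 0.17, adjusted p = 2.1e-08), since its libraries lay above CTRL after JTE-607 and below CTRL after imatinib. MAFK differed by -1.02 (SE 0.20, adjusted p = 0.000222), TXNRD1 by -0.63 (SE 0.09, adjusted p = 3.27e-06) and BACH1 by 0.76 (SE 0.16, adjusted p = 0.000435) in edgeR. None of these 4 genes had overlapping libraries. SRXN1 was called at -1.15 (SE 0.45, adjusted p = 0.0428) in edgeR, but not under DESeq2 (adjusted p = 0.0516), nor without IM 18h replicate 1 (-0.999), 2 (-1.17) or 3 (-1.32) or JTE 18h replicate 2 (-1.18) or 3 (-0.96). The doses of the 2 compounds differ.

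With hyperosmotic KCl BACH1 was the 1 gene of the 9 that passed both the test and the fold threshold, and MAFG passed the test alone with lower adjusted p values. BACH1 mRNA was at 91.4, 91.8 and 77.9 CPM in KCl 1h and 66.2, 59.1 and 49.4 CPM in KCl 3h, against 87.1, 105 and 90.7 CPM in CTRL. At 1 h the libraries overlapped CTRL, and at 3 h all lay below. It was called lower in edgeR at 3 h, by -0.70 (SE 0.16, adjusted p = 0.0028), where 11.9% of all genes were called. Without KCl 3h replicate 3 it was inside the fold threshold, at -0.59. Between 3 and 1 h edgeR called 0 of 9 genes, against 3.29% of all genes, and 1 of 9 had an unadjusted p under 0.05. That gene was BACH1 at -0.58 (SE 0.16, adjusted p = 0.0306), which passed the fold threshold at -0.66 without KCl 1h replicate 3, at -0.69 without KCl 3h replicate 1 and at -0.62 with no filter on low counts.

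MAFG mRNA was lower at both times of KCl, though under the fold threshold. It was at 79.0, 68.5 and 67.4 CPM in KCl 1h and 71.4, 76.9 and 71.1 CPM in KCl 3h, and no library reached the CTRL range. The edgeR log2 fold changes were -0.46 (SE 0.09, adjusted p = 0.00101) and -0.43 (SE 0.09, adjusted p = 0.000829). NFE2L2 mRNA was at 164, 126 and 93.2 CPM in KCl 1h and 111, 88.9 and 91.8 CPM in KCl 3h, with every group's range overlapping that of CTRL. With CTRL numbers 1 and 2 exchanged (142, 95.6 and 67.0 CPM), each KCl 1h library lay above its same-numbered CTRL library. By the titles replicate 2 did not. In the exchanged block the KCl 1h change was 0.35 (SE 0.17, adjusted p = 0.286 in edgeR) and was not called. At KCl 1h edgeR called 0 of 9 mRNAs, against 5.45% of all genes, and 1 of 9, MAFG, had an unadjusted p under 0.05. SRXN1 depended on 1 of the deep libraries there, being at 0.569, 0.419 and 1.91 CPM. Without KCl 1h replicate 3 it was called lower than CTRL at -1.53 (adjusted p = 0.0123 in edgeR), and higher in KCl 3h than in KCl 1h at 1.39 (adjusted p = 0.0241 in edgeR).

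In nuclear RNA of KCl 1h edgeR called 0 of 9 genes, against 23.8% of all genes, and 3 of 9 had an unadjusted p under 0.05. MAFG was at 81.1, 102 and 94.8 CPM and MAFK at 14.3, 15 and 16.0 CPM, every library being below the CTRL range of its gene. Their changes of -0.30 (SE 0.10, adjusted p = 0.0335) and -0.40 (SE 0.12, adjusted p = 0.0169) passed the adjusted p in edgeR but not the fold threshold. NFE2L2 was the third, at 106, 96.4 and 82.6 CPM, and its change of 0.32 (SE 0.12, adjusted p = 0.0648) passed neither. With the replicate numbers as a block, by which nuclear libraries were paired, it passed the adjusted p (0.32, adjusted p = 0.00144) and not the fold threshold, and it was higher than CTRL in each of the 3 pairs.

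**Figure D3:**
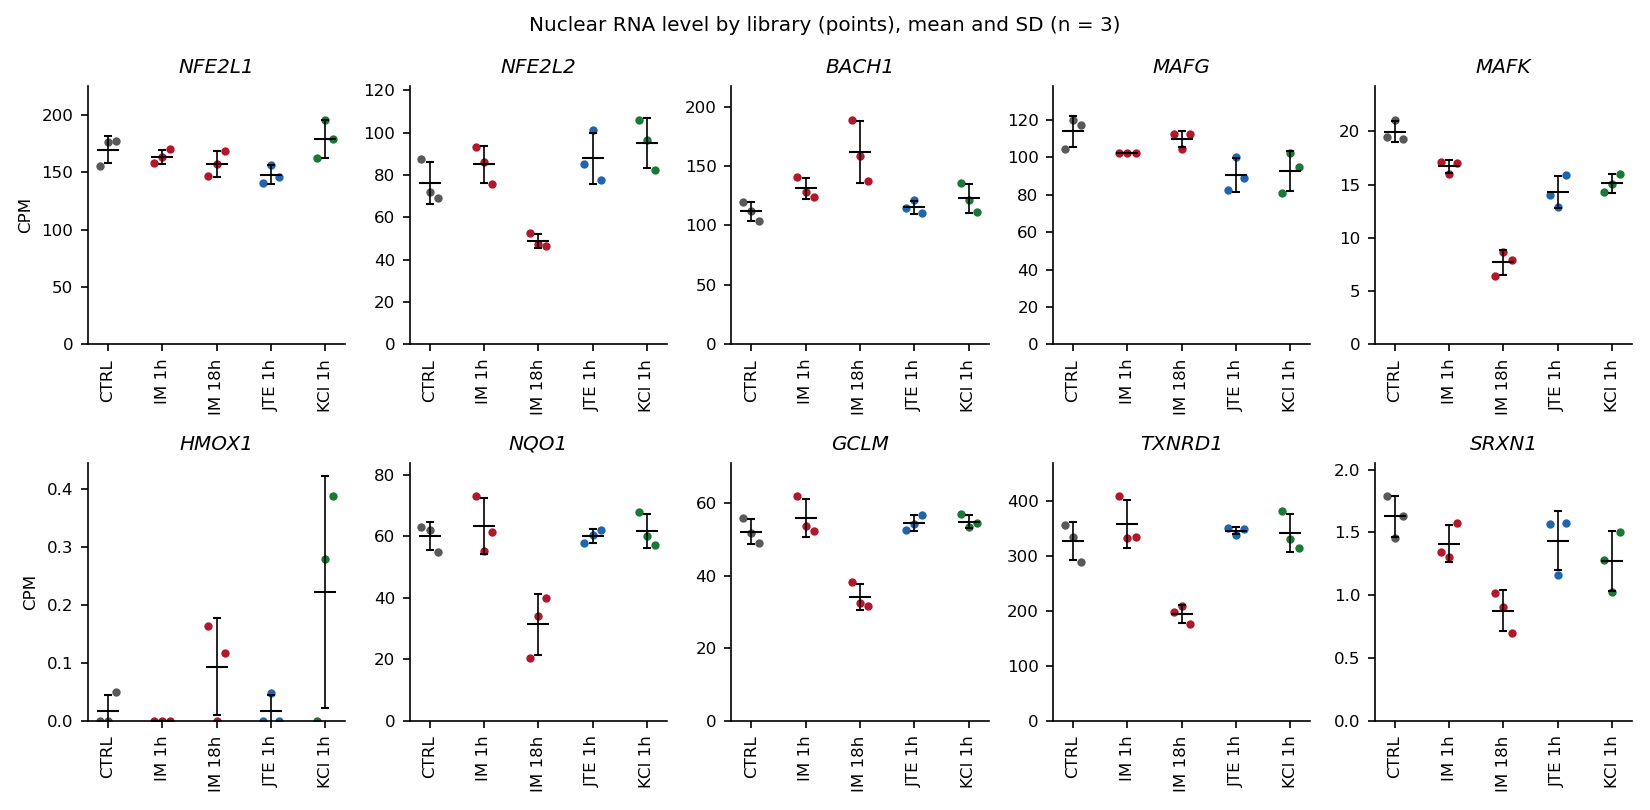
Level of each of the 10 genes in nuclear RNA, in CPM on a linear axis from 0, by treatment group. Points are the 3 libraries of a group in the order of their replicate numbers, and the horizontal mark and bar are their mean and SD. NFE2L2, MAFK, NQO1, GCLM, TXNRD1 and SRXN1 were below every CTRL library in IM 18h, BACH1 was above, and HMOX1 stayed under 0.5 CPM in every library.

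HMOX1, heme oxygenase, which opens the heme ring, was near the floor of detection in these cells. CTRL mRNA held 0, 0 and 0 counts, which with 55219584 counts in all allows a level of up to 0.0543 CPM on unscaled totals. Most counts appeared with KCl, 0, 2 and 7 in KCl 1h and 3, 4 and 11 in KCl 3h. The 18 counts of KCl 3h were 0.283 CPM (exact 95% Poisson interval 0.168 to 0.447, counting error only). That level was 5.21 times the limit that 3 counts over the CTRL group set, and the interval lay above the limit. In KCl 1h the 9 counts were 0.0722 CPM, or 1.33 times that limit. Their interval of 0.0330 to 0.137 included the limit, and the KCl 1h libraries with counts were the 2 deep ones. In IM 6h, IM 18h and JTE 1h mRNA the sums were 2, 2 and 1, and IM 1h, JTE 6h and JTE 18h had 0 counts.

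Nuclear RNA gave HMOX1 counts of 0, 0 and 1 in CTRL and 0, 6 and 8 in KCl 1h, so that replicate 1 of KCl 1h did not stand apart from CTRL. The ratio of the summed CPM to that of CTRL was 14.7 (exact 95% interval 2.24 to 622, counting error only). IM 18h had 4, 0 and 2 counts, a ratio of 6.48 whose interval of 0.787 to 298 includes equal levels. With no filter on low counts edgeR called HMOX1 higher at KCl 3h in mRNA (adjusted p = 0.00534) and at KCl 1h in nuclear RNA (adjusted p = 0.0169). DESeq2 called it in neither (adjusted p = 0.226 and 0.223), so the call depended on the tool.

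Other regulators of the pathway were given as a list of 12 genes, all tested. At IM 18h 1 was called higher and 1 lower in mRNA, against 30.5% of all genes in either direction (median log2 fold change -0.19, all genes 0.04). The counts were the same in nuclear RNA, against 32.6% (median -0.04, all genes 0). MAFF, another small MAF protein, was at 1.38 ± 0.489 CPM in IM 18h mRNA against 4.50 ± 1.11 in CTRL, a log2 fold change of -1.70 (SE 0.36, adjusted p = 0.00054 in edgeR). BTRC, the ligase subunit that recognises phosphorylated NFE2L2, was at 68.0 ± 10.3 CPM against 31.7 ± 2.78, higher by 1.10 (SE 0.13, adjusted p = 4.1e-07 in edgeR). KEAP1 and CUL3, the other ligase arm, were not called. At KCl 3h MAFF was the 1 regulator called, higher at 11 ± 2.73 CPM and 1.29 on the log2 scale (SE 0.32, adjusted p = 0.00541 in edgeR). NFE2L3, a further cap'n'collar factor, was called lower in mRNA at JTE 6h (-0.66, adjusted p = 0.00349 in edgeR) and JTE 18h (-0.77, adjusted p = 0.0025). In nuclear RNA it was called higher at JTE 1h (0.96, adjusted p = 1.68e-05 in edgeR) and at KCl 1h (0.75, adjusted p = 3.65e-05).

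Of 8 genes that process NFE2L1 protein, 0 were called at IM 18h in mRNA by edgeR or DESeq2 (4 at an unadjusted p under 0.05, median log2 fold change -0.04), against 30.5% of all genes in edgeR. VCP, the segregase that extracts NFE2L1 from the membrane, passed the adjusted p alone at -0.52 (adjusted p = 0.000296). OGT, which adds N-acetylglucosamine to proteins, was called lower at KCl 3h (-0.72, SE 0.16, adjusted p = 0.00321 in edgeR) and higher in nuclear RNA of IM 18h (0.62, SE 0.14, adjusted p = 0.00132). The 33 proteasome genes, a known output of NFE2L1, were called in 1 direction at IM 18h. In mRNA edgeR called 8 lower, against 13.2% of all genes, and 0 higher, with a median log2 fold change of -0.44 (all genes 0.04). In nuclear RNA it called 12 lower, against 15.4%, and 0 higher, with a median of -0.50 (all genes 0). ADRM1, a ubiquitin receptor of the proteasome, was at 27.2 ± 1.95 CPM in IM 18h mRNA against 52.7 ± 6.96 in CTRL (-0.95, SE 0.16, adjusted p = 3.33e-05 in edgeR). PSMD12 and PSMD14, subunits of the regulatory particle, changed by -0.90 and -0.74. In mRNA of JTE 18h and KCl 3h edgeR and DESeq2 called 0 of the 33, with 1 at an unadjusted p under 0.05 in each and against 5.39% and 11.9% of all genes called in edgeR, and the medians were -0.00 and 0.12 (all genes -0.01 and 0.02).

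The other enzymes under NFE2L2 were a list of 30 genes, of which 28 passed the count filter in mRNA and 29 in the nuclear fraction. At IM 18h 6 were called higher and 5 lower in mRNA, against 30.5% of all genes in either direction, with a median of 0.03 (all genes 0.04). In nuclear RNA 8 were called higher and 4 lower, against 32.6%, with a median of -0.06 (all genes 0). The called genes thus went in both directions. OSGIN1, a gene induced by oxidants, was at 0.755 ± 0.0374 CPM in IM 18h mRNA against 2.67 ± 1.04 in CTRL (-1.81, SE 0.45, adjusted p = 0.00233 in edgeR). PIR, which encodes pirin, was higher at 21.1 ± 6.02 CPM against 6.85 ± 3.18 (1.62, SE 0.38, adjusted p = 0.00168 in edgeR), and BLVRB, biliverdin reductase B, was higher at 376 ± 61.7 against 158 ± 8.06 (1.25, SE 0.13, adjusted p = 7.83e-08). In nuclear RNA the most changed were GSTM3 (1.35), NQO2 (-1.28) and BLVRB (1.22). GCLC, the catalytic partner of GCLM, was singled out after its values were seen. It was called higher in IM 18h mRNA (0.79, SE 0.14, adjusted p = 0.000122 in edgeR), while GCLM had a log2 fold change of -0.60. At KCl 3h 1 of the 28 enzymes was called, against 11.9% of all genes, the heme transporter SLC48A1, at -0.80 (SE 0.11, adjusted p = 1.47e-05 in edgeR). The other way round, the median of the 28 was 0.16 (all genes 0.02), and 5 of them had a negative log2 fold change. At JTE 18h edgeR and DESeq2 called 0 of these enzymes, with 6 at an unadjusted p under 0.05 and against 5.39% of all genes in edgeR.

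**Figure D4:**
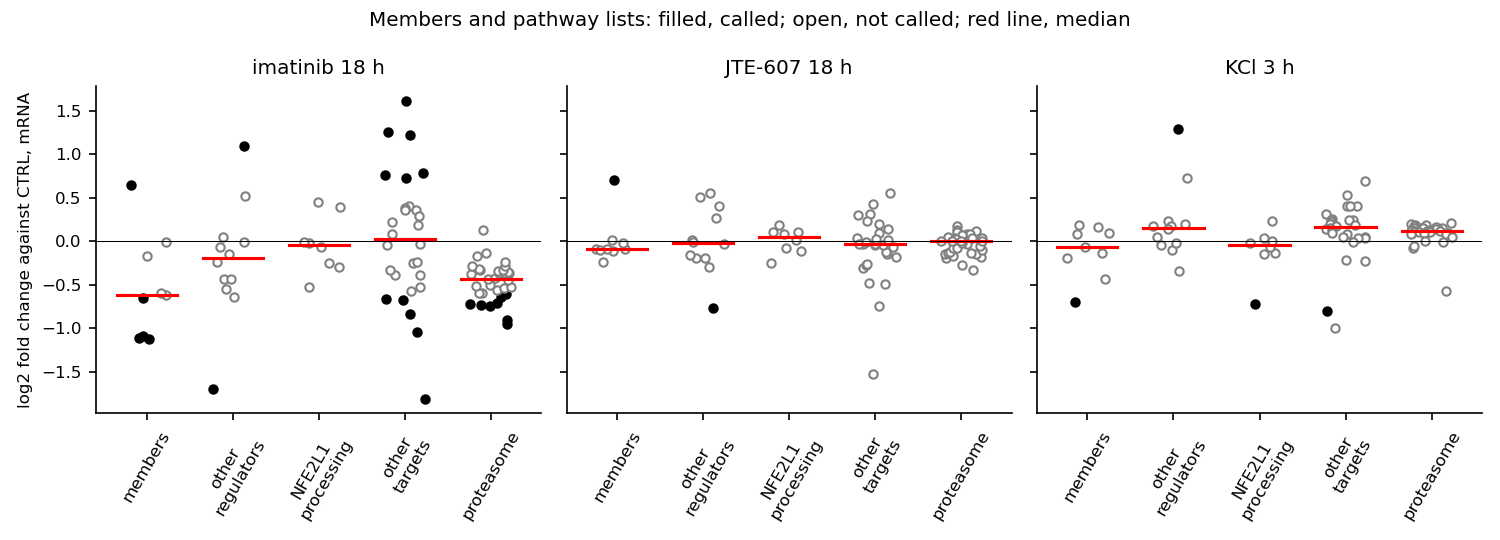
Log2 fold change against CTRL in mRNA for the 9 tested genes followed here (members) and the 4 pathway lists, in IM 18h, JTE 18h and KCl 3h. Each point is a gene, filled if called, and the red line is the list's median. In IM 18h the proteasome points lie almost all below 0 around a median of -0.44, and the other NFE2L2 target enzymes lie on both sides of 0. In JTE 18h the medians lie close to 0, and in KCl 3h they run from -0.06 (members) to 0.16 (other NFE2L2 target enzymes).

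Genes whose pattern over the 9 mRNA groups was most like that of a regulator were ranked among 8713 genes. The measure was the Pearson correlation of group means of log2(CPM + 0.5). It is a description without a test, because the r values given are the highest of 8713 over only 9 points. The highest NFE2L1 group mean was just 1.26 times the lowest. For NFE2L1 the most similar genes were ZCCHC4 (r = 0.984), STK3 (0.967) and CSRNP2 (0.963). For NFE2L2 they were QSER1 (0.969), CENPJ (0.966) and LPIN1 (0.966), and for BACH1 RPRD2 (0.969), ZNF100 (0.964) and ZNF426 (0.962). HMOX1 was left out of the ranking because its level was near 0.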

How the data were processed

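Poly(A) mRNA (27 libraries) and nuclear RNA (15 libraries) of K562 cells were sequenced as read pairs. The deposited values are raw counts per gene: the authors trimmed and deduplicated reads with fastp, kept unique alignments to hg38 from STAR, and counted pairs over exons with featureCounts without a strand option. Pairs that hit several genes were discarded, which reduces overlapping genes, and reads of antisense genes were not separated. Abundant transcripts may have lost counts to deduplication, since no molecular identifiers were used. The annotation release is not given in the sources used here. Of 58243 gene IDs, 57532 were found in GENCODE 44, and 0 count columns were without a sample.

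Groups came from the sample titles. The labels call the libraries biological replicates, and replicates of each group differed by more than sampling noise (chi-square per gene 2.37 to 62.5). The main test was edgeR's quasi-likelihood test (version 4.0.16, R 4.3.3) with robust estimation, TMM scaling and filterByExpr, fitted per fraction over every group, and p-values were adjusted over all genes tested. edgeR's common dispersion came to 0.0284 (mRNA) and 0.0176 (nuclear). The script was tested on simulated data. Alternatives were DESeq2 1.42.0, RLE normalization, no filter, no fold threshold, fits of only the 2 groups, a replicate block, and leaving out each library in turn. Same-numbered libraries deviated together in every nuclear comparison (correlations of 0.235 to 0.891), so their numbers were taken as pairs, while of 11 mRNA comparisons 1 met the minimum of 0.1. The main fits held no block in either fraction, so nuclear values are unpaired unless a block is named. At nuclear IM 18h the block moved edgeR's adjusted p from 0.000291 to 2.42e-08 for NFE2L2 and from 0.000188 to 0.00469 for NQO1. The titles and count columns number CTRL mRNA libraries 1 and 2 the other way round from the study's supplementary read table. The titles were kept, and neither source says which is right, but the exchanged numbers gave the higher correlations. At IM 1h these were -0.24, -0.27 and 0.88 by the titles and 0.83, 0.83 and 0.88 with the exchange. At JTE 18h, the weakest, they were -0.12, -0.17 and 0.06 by the titles and 0.10, 0.24 and 0.06 with it. With the 2 numbers exchanged, 7 of 8 mRNA comparisons with CTRL met the minimum, so a block with that exchange was added after seeing the data. For lists, at most the 3 called genes with the largest change and no overlap between libraries are named. The 10 genes, the lists and the tests were chosen with earlier results of these data known. HMOX1 intervals are exact Poisson, and a floor is 3 counts.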

Additional observations from a re-analysis of the deposited data

Results flagged for a closer look

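NQO1 mRNA stood out because its imatinib response differed between time points, by a direct edgeR test of IM 18h against IM 6h. The log2 difference was -0.97 (SE 0.16, adjusted p = 0.00128), and all 3 libraries of IM 18h lay below all 3 of IM 6h.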

How the results depend on the processing

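No called result changed direction under any alternative tried. Of the 171 gene and comparison pairs, 168 kept their side of the threshold under DESeq2, 169 under RLE normalization, 167 with no filter on low counts and 170 with the replicate block, as did 133 of 135 in fits of only the 2 groups. Normalization and filter moved the median of all genes by between -0.08 and 0.07 on the log2 scale. The replicate block left the count for nuclear IM 18h at 6, added GCLM to the mRNA calls at IM 18h (-0.61), and changed no other call. With CTRL mRNA numbers 1 and 2 exchanged, a block chosen after seeing the data, GCLM was not called (-0.59), and all 135 gene and comparison pairs fitted kept their side. Without the fold threshold the number of genes called was 2 at IM 6h, 1 at KCl 1h and 2 at KCl 3h in mRNA, 2 at nuclear JTE 1h, 2 at nuclear KCl 1h, 2 for IM 18h against IM 6h and 1 for KCl 3h against KCl 1h. With no filter on low counts it was 2 at KCl 3h, 1 at nuclear KCl 1h (HMOX1 in both) and 1 for KCl 3h against KCl 1h (BACH1). Leaving out 1 library at a time gave 3 to 6 calls at mRNA IM 18h, 0 to 1 at KCl 1h, 0 to 1 at KCl 3h, 1 to 2 for IM 18h against IM 6h and 0 to 2 for KCl 3h against KCl 1h. Of 1242 such gene fits 1213 kept their side, 19 lost a call and 10 gained one, and the causes were not tested. NFE2L2 mRNA is limited by the spread of its CTRL libraries, and SRXN1 and HMOX1 by their counts. That NFE2L2 spread was not particular to CTRL (SD 37.8 CPM), being 29.7 CPM in IM 1h, 41.3 in JTE 1h and 35.4 in KCl 1h. In the block with CTRL numbers 1 and 2 exchanged, its SE at IM 18h was 0.18, against 0.28 in the main fit.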
